A study of Mus musculus with 9 samples.

Results

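Gene expression at day 10 of interleukin 5 (IL-5) was compared, gene by gene, with that of the progenitor culture it started from, in low-density bone marrow (LDBM) cells of Balb/c mice. The comparison took 6 of the 9 arrays of the series, chosen by their titles. The 3 arrays before IL-5 hold cells after 4 days in medium with 100 ng/mL of SCF (stem cell factor) and FLT3L (FLT3 ligand). The 3 arrays at day 10 hold cells that passed through the same 4 days and then received IL-5 for 10 days. All came from pooled marrow of the Balb/c background, and neither the dose of IL-5 nor the age of the mice is given in the labels. LDBM cells are a mixed light-density fraction, not a purified progenitor, so both groups are cell mixtures. No culture of the same length that lacked IL-5 is analysed here, and IL-5, time in culture and any change of the other cytokines cannot be told apart. The labels do not say whether the 3 arrays of each group come from separate cultures or mice. The p-values therefore reflect only how these arrays vary, and that variation may be technical.

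Values are the deposited log2 signals of a whole-transcript mouse array, so a difference of 1 is a 2-fold change in signal. Rises and falls below are changes of at least 2-fold with an adjusted p under 0.05 in limma. Genes described as at the limit passed here but not under another scaling or with 1 array left out. The arrays correlated at 0.992 to 0.995 across genes before IL-5, at 0.991 to 0.994 at day 10, and at 0.927 to 0.936 between these groups. Of the day 10 arrays, replicate 3 stands apart: 26 genes lay more than 1 above their group mean there and 0 below, against 2 and 4 genes in either direction in replicates 1 and 2. Those genes included macrophage and matrix genes (Mrc1, Gpnmb, F13a1, Col1a2), so results that rest on replicate 3 are given with and without it. As a mark for dim signals, 4.66 was used, the lower quartile of all gene means. This array platform gave no detection calls here, and the signal summary used compresses changes of dim genes.

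Eosinophils are granulocytes that store cationic proteins and a peroxidase in large granules, carry the eotaxin receptor, and act in allergy and in defence against parasites. They arise in the marrow from myeloid progenitors in which GATA-1, C/EBP factors and PU.1 act together. IL-5 binds a receptor made of its own alpha chain and a beta chain shared with IL-3 and GM-CSF, and signals through JAK2 and STAT5 to survival, maturation and feedback genes.

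Of 19938 genes tested, 964 rose (4.83%) and 1875 fell (9.4%), together 14.2% of all genes. The median rise was 2.95-fold and 283 of the 964 (29.4%) reached 4-fold, whereas the median fall was 2.56-fold and 210 of the 1875 (11.2%) reached 4-fold. At 16-fold or more there were 36 rises and 3 falls. In all 964 risen genes and in 1873 of the 1875 fallen ones the arrays of the groups did not overlap, as in 49.7% of all genes. Under the dim mark, itself the lower quartile of all gene means, 33 risen genes (3.42%) started and 61 fallen genes (3.25%) ended. Signals close above the mark, such as Ccr3 at 4.913 before IL-5 and Car1 at 5.015 at day 10, are not counted. These counts therefore do not show how many changes ran from or to a dim signal. Falls made up 66.0% of the changes on the deposited scale, 57.8% after quantile normalization, 54.5% after quantile normalization over the tested genes alone and 55.2% with the medians of the tested genes subtracted. The median change over all genes was -0.07 and lay between -0.10 and 0.06 under these and the other settings tried. Medians and counts of gene lists below are to be read against that median and those shares.

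**Figure D1:**
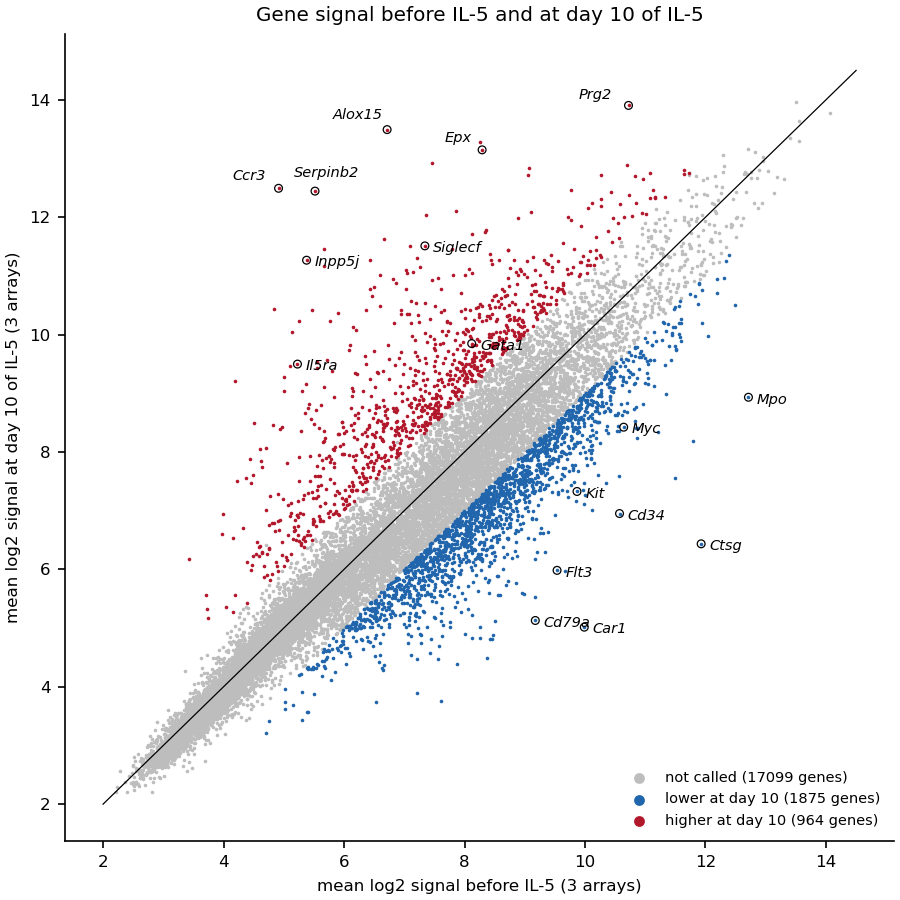
Mean log2 signal of each gene before IL-5 (horizontal axis, 3 arrays) and at day 10 (vertical axis, 3 arrays), with 964 genes that rose in red, 1875 that fell in blue and the others in grey; the line marks equal signal. Ccr3, Serpinb2 and Alox15 lie farthest above the line, and Ctsg and Car1 farthest below it.

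Of the granule genes of eosinophils, Prg2, Prg3, Epx and Ear6 rose, by 9.07-fold to 44.2-fold. Epx, which encodes eosinophil peroxidase, read 8.16, 8.40 and 8.32 on the arrays before IL-5 and 13.15, 13.23 and 13.06 at day 10, a change of 4.85 (SE 0.102, adjusted p = 6.77e-12). The groups are far apart and each is tight. At day 4 Epx already read 12.93, 12.81 and 12.78, and the further step to day 10 was 0.31 (adjusted p = 0.0353), under 2-fold (6.42% of all genes passed between day 4 and day 10). Prg2, the gene of major basic protein, the toxic core of the granule, was well above the dim mark from the start, at 10.68, 10.97 and 10.51, and read 13.75, 13.96 and 13.99 at day 10. Its homologue Prg3 went from 7.21, 7.56 and 7.32 to 11.92, 12.17 and 12.04, and the 2 genes are neighbours on chromosome 2. The ribonuclease gene Ear6 rose by 5.47 to 12.98, 13.04 and 12.76. Ear genes are nearly the same in sequence, and which copy gave this signal is uncertain. Of the 7 granule genes measured, 4 rose and 1 fell (median 3.18). The member that fell was the ribonuclease Rnase2a, from 6.45, 6.54 and 6.28 to 4.76, 4.76 and 4.75, while Rnase2b (0.63) and Ear14 (-0.09) did not pass.

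The eosinophil surface receptor genes rose in 11 of 16 measured members, against 4.83% of all genes, and 1 fell (median 3.19). Ccr3, the receptor through which eotaxins draw eosinophils into tissue, had the largest change of all genes tested. It read 4.99, 4.87 and 4.88 before IL-5, 7.39, 7.19 and 7.05 at day 4, and 12.44, 12.42 and 12.62 at day 10, a rise of 7.58 (SE 0.11, 191-fold, adjusted p = 3.56e-13). The starting arrays lie close to the dim mark, where changes are compressed, so the fold itself is uncertain. The complement receptor C3ar1 rose by 4.97 and stood near its day 10 level by day 4 (11.01, 10.99 and 11.18 at day 4, then 11.62, 11.41 and 11.86). Siglecf, the sialic acid receptor used to recognise mouse eosinophils, changed mostly between day 4 and day 10, from 8.61, 8.56 and 8.41 to 11.60, 11.46 and 11.47. Adgre1, which encodes the F4/80 antigen carried by mouse eosinophils as well as macrophages, rose by 4.24, and its relative Adgre4 by 4.32. Cd300lf rose by 4.20, the chemokine receptor Ccr1 by 3.23, the nucleotide receptor P2ry14 by 3.16, the inhibitory receptor Pirb by 3.00 and the prostaglandin D receptor Ptgdr2 by 2.56. As in all 964 genes that rose, the arrays of the groups did not overlap in these 11, nor did they in 49.7% of all genes. The lectin receptor Clec4a4 fell, from 4.89, 4.46 and 4.94 to 3.31, 3.31 and 3.62, at the dim end of the scale. Cd9 (0.76), Cd300a (0.59), Itgax (-0.78) and the histamine receptor Hrh4 (0.00) did not pass.

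The IL-5 receptor genes rose on both sides of the complex. Il5ra, the IL-5 binding alpha chain, read 5.00, 5.25 and 5.44 before IL-5, 6.30, 6.38 and 6.48 at day 4 and 9.55, 9.48 and 9.45 at day 10 (4.27, SE 0.117, 19.3-fold, adjusted p = 2.62e-11). Csf2rb, the shared beta chain, read 9.78, 9.89 and 9.62 before IL-5 and 12.32, 12.63 and 12.44 at day 10, and its mouse copy Csf2rb2 rose by 2.83. These copies are close in sequence and lie side by side, so their signals may be shared. The IL-3 alpha chain Il3ra stood 0.36 lower and the GM-CSF alpha chain Csf2ra 0.88 higher, and neither reached 2-fold, although Csf2ra reached 1.02 with the medians of the tested genes subtracted.

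Promoter sequence is shown for 3 of these eosinophil genes that rose by day 10, Prg3 mostly by day 4 and Ccr3 and Il5ra mostly after it, and that hold the GATA core motif GATAA within the 250 bases before the annotated start. They are RefSeq sequences of build GRCm38.p6, read 5′ to 3′ on the gene's strand, with each GATAA match in capitals, as TTATC where it lies on the other strand. The promoter of Prg3 (chr2:84987965-84988214, plus strand) holds 2 matches, 123 and 111 bases before the start. That of Ccr3 (chr9:124021721-124021970, plus strand) holds 1, 29 bases before the start, and that of Il5ra (chr6:106749038-106749287, minus strand) holds 1, 73 bases before it.
Prg3: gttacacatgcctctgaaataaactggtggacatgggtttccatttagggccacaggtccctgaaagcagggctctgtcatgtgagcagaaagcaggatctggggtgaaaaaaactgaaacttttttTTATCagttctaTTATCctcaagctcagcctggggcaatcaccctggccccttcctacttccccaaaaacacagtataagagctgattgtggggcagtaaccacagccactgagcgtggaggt
Ccr3: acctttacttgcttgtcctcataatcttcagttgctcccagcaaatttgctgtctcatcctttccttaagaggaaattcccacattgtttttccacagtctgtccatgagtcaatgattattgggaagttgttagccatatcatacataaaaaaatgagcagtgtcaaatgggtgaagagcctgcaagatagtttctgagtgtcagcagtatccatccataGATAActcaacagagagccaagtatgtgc
Il5ra: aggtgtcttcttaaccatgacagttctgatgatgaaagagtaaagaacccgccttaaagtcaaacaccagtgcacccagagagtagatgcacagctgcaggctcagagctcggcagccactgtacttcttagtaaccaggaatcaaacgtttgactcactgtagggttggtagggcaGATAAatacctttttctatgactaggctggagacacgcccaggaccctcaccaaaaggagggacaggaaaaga
In windows of 300 bases, from 250 before to 50 after the start and on both strands, GATAA was found in 7 of the 13 eosinophil surface receptor genes with a promoter sequence (53.8%) and in 21.6% of the 15614 measured genes that have one. It was found in 16.7% of the genes that rose and 17.7% of those that fell, so its share among risen genes was not above that of all genes. The 13 receptor promoters had a median G and C share of 49.3%, against 57.7% for all measured genes with a promoter. Whether this difference in composition accounts for their GATAA share was not tested. A match of these letters is a description, not a binding site, and Epx had 0 matches in its 250 bases. Cish, searched for TTCNNNGAA, and Slc7a11, searched for TGACNNNGC (N, any base), also had 0 matches and are not shown. TTCNNNGAA lay in 6.4% of the genes that rose and 7.8% of all, and TGACNNNGC in 15.2% and 13.4%.

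**Figure D2:**
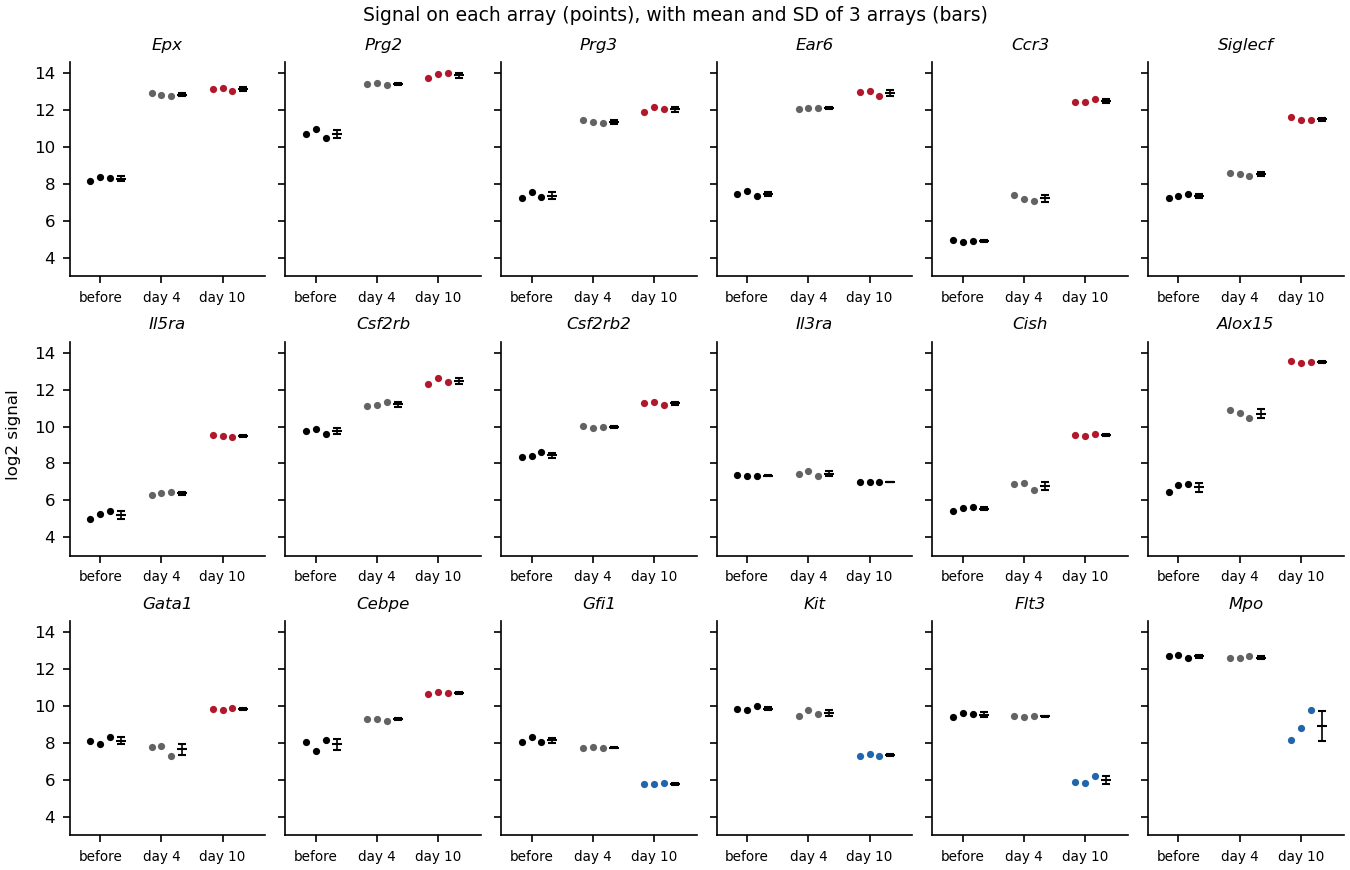
Log2 signal of 18 genes on each array of the 3 time points, with the mean and SD of 3 arrays as a bar beside the points; day 10 points are red for genes that rose, blue for genes that fell and black for Il3ra, which did not pass. Epx and Ear6 stand near their day 10 level at day 4, whereas Ccr3, Siglecf, Il5ra and Gata1 stand higher at day 10 than at day 4.

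Downstream of the receptor, STAT5 and IL-5 response genes moved in both directions, 10 of 22 rising and 6 falling (median 0.88). Cish, a STAT5 target that damps IL-5 family signalling, read 5.45, 5.57 and 5.64 before IL-5, 6.87, 6.93 and 6.56 at day 4 and 9.55, 9.47 and 9.58 at day 10 (3.98, 15.8-fold). Socs2, another feedback inhibitor, rose by 4.90 on the probe set used and by 2.31 on its other one. The kinase gene Pim1 rose by 1.87, the cytokine gene Osm by 1.85 and the survival genes Mcl1 and Bcl2l1 by 1.34 and 1.04. Bcl2l1, at the limit, gave 0.97 without replicate 1 before IL-5 and 0.99 without day 10 replicate 3. In the same list the growth genes Ccnd2 (-2.98), Ccnd1 (-2.75) and Myc (-2.22) fell, and so did Bcl2, from 9.08, 9.15 and 9.15 to 7.59, 7.43 and 7.54. Further inhibitors of signalling in the list did not move one way: Socs1 (1.58) and Dusp5 (1.25) rose, Spry2 (-1.39) and, close to 2-fold, Spred1 (-1.05) fell, and Socs3 (0.89), Dusp6 (-0.17) and Spred2 (-0.96) did not pass. These 7 genes were named after their values were seen. Of 9 JAK and STAT genes, Jak2 (1.43) and Jak1 (1.07) rose and Stat4, known from IL-12 signalling, fell (-1.78). Jak1 did not reach 2-fold without replicate 2 before IL-5.

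Of 34 lineage transcription factors 11 rose and 9 fell (median 0.21). Gata1, the factor that eosinophils share with red cells and megakaryocytes, read 8.12, 7.92 and 8.31 before IL-5, 7.79, 7.84 and 7.32 at day 4 and 9.84, 9.81 and 9.89 at day 10 (1.73, SE 0.143, adjusted p = 4.35e-07). Day 4 was thus not above the start, and all 3 day 10 arrays were above both earlier groups. Gata2 (0.18) and the GATA cofactor gene Zfpm1 (-0.08) did not pass, and their groups overlapped. Cebpe, a factor of late granulocyte maturation, rose by 2.77 while Cebpa, which acts earlier, fell from 8.42, 8.47 and 8.46 to 7.09, 7.06 and 7.29. The kinase-like regulators of C/EBP moved oppositely, Trib1 up by 2.59 and Trib2 down with a change of -3.08. Irf8, a factor of monocytes and dendritic cells, read 9.83, 9.92 and 9.90 before IL-5, 10.53, 10.71 and 10.69 at day 4 and 7.47, 7.62 and 7.95 at day 10. Gfi1, a repressor of granulocyte progenitors, fell from 8.07, 8.31 and 8.04 to 5.76, 5.75 and 5.83. Irf4 (-2.59) and Tcf4 (-1.72), the E protein of plasmacytoid dendritic cells, fell as well. Bhlhe40 had the largest rise of the list, from 6.39, 6.38 and 6.33 to 10.36, 10.58 and 10.33, followed by Cebpe, Trib1 and Ikzf3 (2.09). Id2 (1.70) and Id1 (1.47), inhibitors of E proteins, and Klf6 (1.90) rose too. Spi1, which encodes PU.1, stood 0.99 higher, just under 2-fold, and passed under some other settings, and Xbp1, needed by secretory cells, stood 0.29 higher.

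Outside these groups the largest rises included genes of lipid metabolism, protease control and transport. Serpinb2, an inhibitor of plasminogen activators, read 5.28, 5.60 and 5.67 before IL-5, 8.79, 8.96 and 8.60 at day 4 and 12.24, 12.59 and 12.50 at day 10 (6.93, 122-fold). Alox15, the lipoxygenase that eosinophils carry at high level, read 6.44, 6.84 and 6.86 before IL-5 and 13.54, 13.46 and 13.48 at day 10 (6.78, SE 0.139, 110-fold, adjusted p = 6.42e-12). Inpp5j, an inositol lipid phosphatase, rose by 5.89 and Slc7a11, the cystine importer that feeds glutathione synthesis, by 5.79. The endothelial lipase gene Lipg rose by 5.61, from 5.03, 4.55 and 4.93. Cyp4f18, of the family that inactivates leukotriene B4, read 5.76, 5.43 and 5.80 before IL-5, 6.61, 6.67 and 6.44 at day 4 and 11.24, 11.20 and 11.05 at day 10. The chemokine gene Ccl6 (5.02), the peptidylarginine deiminase Padi4 (4.99) and the uncharacterised genes A530064D06Rik (5.01) and 9830107B12Rik (4.94) complete the 15 largest rises. Serpins, stefins and cystatins rose in 4 of 19 measured genes, with Serpinb6a at 1.71, and Serpinb1a, the inhibitor of neutrophil proteases, fell (-2.73). The 15 largest rises were taken only among genes whose arrays did not overlap between the groups, as 49.7% of all genes did not. The 15 largest falls, taken in the same way, included Mc5r (-3.89), B3gnt5 (-3.86), Bex6 (-3.61) and Gem (-3.59), and the others are described below.

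Around Alox15, 9 of 31 lipoxygenase, leukotriene and prostaglandin genes rose and 3 fell (median 0.08). Pla2g7, which cleaves platelet-activating factor, rose from 8.97, 9.23 and 8.97 to 12.71, 12.72 and 12.73, and Alox5, which starts leukotriene synthesis, from 9.10, 9.07 and 9.16 to 12.14, 12.08 and 12.06. The epoxide hydrolase Ephx1 (-1.86), Ptges3 (-1.33) and the prostaglandin receptor Ptger3 (-1.03) fell, the last at the limit. Of 7 subunits of the NADPH oxidase, the enzyme of the respiratory burst, and its partners 5 rose and 0 fell. Cybb rose by 1.67, the proton channel Hvcn1 by 1.53, Ncf1 by 1.40 and Cyba by 1.35. In the NRF2 and glutathione list 4 rose and 4 fell of 29. Nqo1 (1.69), catalase Cat (1.30) and, at the limit, Gpx4 (1.04) rose beside Slc7a11, while Gclc, the enzyme limiting glutathione synthesis, fell (-1.44), with Gstm1 (-1.48) and, at the limit, Sod2 (-1.11) and Prdx1 (-1.02). After quantile normalization 2 of the list fell, as also without day 10 replicate 1. Of 18 arginine and peptidylarginine enzymes 3 rose and 5 fell. Arginase Arg2 rose by 3.19, from 5.83, 5.49 and 5.53 to 8.73, 8.92 and 8.77, and the polyamine catabolic Sat1 by 1.11, whereas the polyamine enzymes Srm (-1.64) and Odc1 (-1.57) and the arginine methyltransferases Prmt5 (-1.94) and Prmt1 (-1.85) fell.

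Some genes of granule release and of the lysosome rose. Of 24 secretion and granule traffic genes 9 rose, with the SNARE genes Stx3 (2.82) and Snap23 (2.14), the synaptotagmin-like Sytl1 (2.73) and the large GTPase Rab44 (2.20). Rab38 (-1.88) and Rab27b (-1.04) fell, the latter at the limit. Of 30 lysosome genes 8 rose and 0 fell, led by cathepsin H, Ctsh (2.72), and including Cd63 (2.11), a granule membrane protein of eosinophils, and Ctsd (1.89). Atp6v0d2 read 4.55, 4.76 and 4.83 before IL-5 and 6.59, 6.33 and 8.09 at day 10, with replicate 3 far above the others. Without that array 6 lysosome genes rose and 1 fell. Of 24 inositol lipid kinases and phosphatases 8 rose and 0 fell, with Pip5k1b (1.76), Pik3r6 (1.47) and Plcb2 (1.43) behind Inpp5j.

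Paired immunoglobulin-like and Siglec receptors rose in 13 of 26 and fell in 2 (median 0.96, or 0.78 without day 10 replicate 3), with Lilra6 at 4.07, Lilr4b at 3.42 and Siglech, a receptor of plasmacytoid dendritic cells, at -1.15, at the limit. Close copies in this family can share signal. Fc and complement receptors rose in 8 of 17, with Fcgr3 at 2.35 and Cd55 at 2.18, and the IgE receptor chain Fcer1a fell (-1.67). Without day 10 replicate 3, 7 of these receptors rose and 2 fell. Purinergic receptors rose in 6 of 14, with P2rx1, an ATP-gated channel, from 7.22, 7.13 and 7.42 to 11.12, 11.18 and 11.14, the ectonucleotidase Entpd1 by 2.97 and P2ry10 by 1.99, while P2ry1 fell (-1.95). Integrins and adhesion genes rose in 7 of 25, with the integrin pair Itgam (2.29) and Itgb2 (2.04), which binds complement and ICAM-1, and Itgb7 (1.46). Itga1 (-2.49) fell, and Itga6 (-1.01) fell at the limit, giving -0.86 after quantile normalization and -0.80 without day 10 replicate 2. Of Toll-like receptors and adaptors 4 of 22 rose, Tlr13 by 2.89, Tlr4 by 2.28, Tirap by 1.13 and, at the limit, Tlr6 by 1.04, and Ly86 fell (-1.99). Without day 10 replicate 3 there were 3 rises and 3 falls.

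Among 56 cytokines and chemokines 11 rose and 3 fell. Csf1, the macrophage growth factor, read 5.51, 5.79 and 5.98 before IL-5, 6.89, 7.35 and 7.10 at day 4 and 10.21, 10.27 and 10.23 at day 10. Il1rn rose by 3.58 and Il1a by 3.29. Il4, the type 2 cytokine that eosinophils can store, went from 5.06, 5.12 and 5.03 to 6.20, 7.47 and 7.61, with replicate 1 well below the others yet above all arrays before IL-5. Il12a (-2.73), Mif (-1.29) and Ccl5 (-1.05) fell, Ccl5 at the limit. Cytokine and chemokine receptors rose in 7 of 45 and fell in 6 (median -0.07). Besides Ccr3 and Ccr1, Il18rap (2.25) and Ccrl2 (1.51) rose, and the gp130 gene Il6st (-2.32), Il6ra (-1.39), Ccr2 (-1.82) and Cx3cr1 (-1.55) fell. Of 31 immediate early and stress genes 9 rose, with the phosphatase Dusp1 at 3.47 and Gadd45a, a growth arrest gene, at 2.76. Dusp2 (-1.80) and the chaperone Hsph1 (-1.74) fell.

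Interferon-stimulated genes rose in 11 of 26 and fell in 0 (median 0.75). Oas2 read 6.21, 6.44 and 6.58 before IL-5, 8.84, 8.74 and 8.89 at day 4 and 8.05, 8.71 and 8.53 at day 10. Rsad2 (1.99), Oas3 (1.83) and Ifit3 (1.77) also stood at day 10 below their day 4 arrays and above those before IL-5. The mean over the list was 7.84, 8.27 and 8.45 on the day 10 arrays, lowest in replicate 1, against 7.28 to 7.37 before IL-5.

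**Figure D3:**
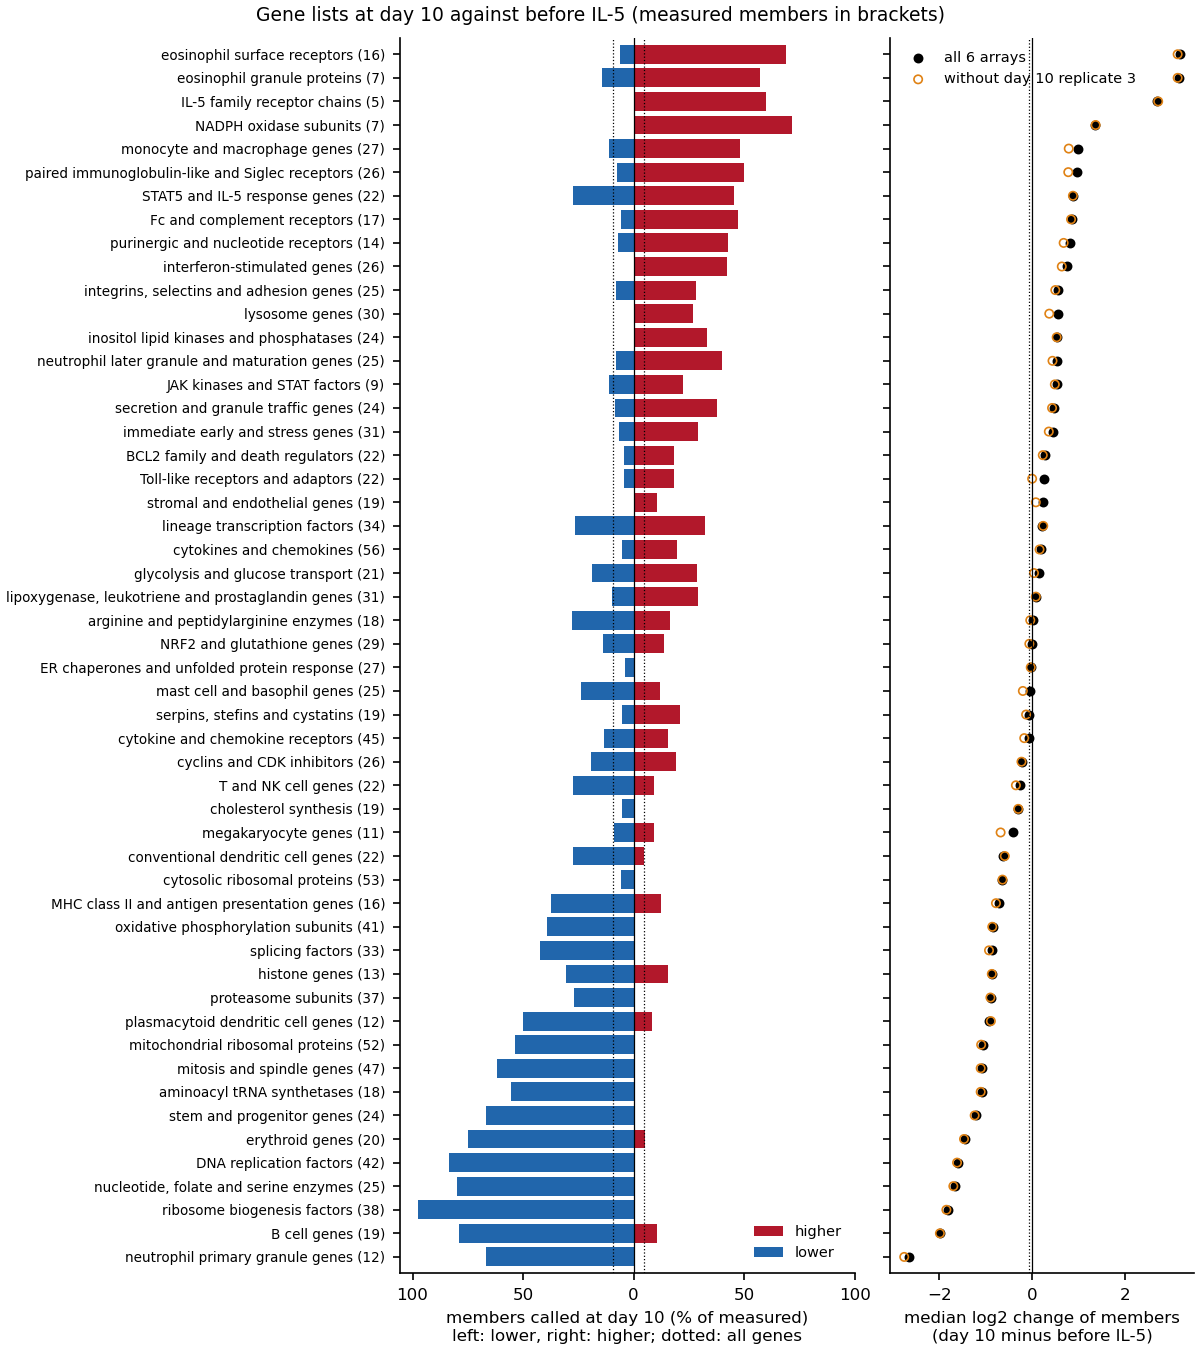
Left, share of measured members (in brackets after each name) called higher (red) or lower (blue) at day 10 for 52 gene lists, with dotted lines at the shares over all genes, 4.83% and 9.4%. Right, median log2 change of the members over all 6 arrays (black) and without day 10 replicate 3 (orange). Eosinophil lists head the plot with medians of 3.19 and 3.18, and primary granule genes of neutrophils close it at -2.65.

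Most measured genes of progenitors, red cells and B cells fell. Since the cultures are mixtures, fewer cells of a type and less RNA per cell cannot be told apart here. Of 24 stem and progenitor genes 16 fell and 0 rose, against 9.4% of all genes that fell. Kit, the SCF receptor, read 9.85, 9.77 and 9.98 before IL-5, 9.46, 9.79 and 9.58 at day 4 and 7.29, 7.39 and 7.30 at day 10 (-2.54, SE 0.109, adjusted p = 1.41e-09). Flt3, the receptor of FLT3 ligand, followed the same course, from 9.40, 9.63 and 9.58 through 9.46, 9.41 and 9.47 to 5.90, 5.83 and 6.22. Both stood at day 10 far below both earlier groups. Cd34 had started to drop by day 4 (8.23, 8.36 and 8.27) and went from 10.63, 10.59 and 10.50 to 6.72, 6.78 and 7.35. The adhesion receptor Adgrl4 (-3.65) and the mucin Muc13 (-3.05) fell as well.

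Red cell genes fell in 15 of 20, and the member that rose was Gata1. Carbonic anhydrase 1, Car1, read 10.03, 9.93 and 10.01 before IL-5 and 4.71, 5.27 and 5.07 at day 10. It had reached that level at day 4 (5.35, 5.27 and 4.94), the step from day 4 to day 10 being -0.17 (adjusted p = 0.422). Car2 (-3.70), Cldn13 (-3.48) and Rhag (-3.32) fell. At day 10, 4 of the 20 lay under the dim mark, the lower quartile of all gene means, against 0 before IL-5. B cell genes fell in 15 of 19. Cd79a, part of the B cell receptor, read 9.05, 9.33 and 9.14 before IL-5 and 4.98, 5.11 and 5.29 at day 10, and Cd79b (-3.64), the recombinase Rag1 (-3.44) and the factor Ebf1 (-3.39) fell with it. Of the members that rose, Bank1, a B cell scaffold protein, went from 6.20, 5.98 and 6.20 to 9.09, 9.12 and 9.08, and Cd24a, carried by many granulocytes, from 10.48, 10.70 and 10.13 to 12.25, 12.80 and 12.25.

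T and NK cell genes fell in 6 of 22, among them Nkg7 (-2.57), Gzmb (-2.00), Cd2 (-1.55) and Klrd1 (-1.43). The CD3 chain genes did not move together. Cd3g read 4.66, 4.38 and 4.84 before IL-5 and 7.90, 7.75 and 7.87 at day 10 (3.21), and Cd3d rose by 1.49. Cd3e, of a further chain of the complex, read 5.34, 5.66 and 5.27 before IL-5 and 5.87, 5.43 and 5.28 at day 10. The difference was 0.10 (adjusted p = 0.634 in limma), with overlapping groups. Cd3e was picked out after its values were seen. Mast cell and basophil genes fell in 6 of 25, including Cpa3 (-2.44), Mcpt8 (-2.11) and Fcer1a (-1.67), and rose in 3, Cyp11a1 (3.34), Hgf (2.11) and Il4. Mcpt8, a basophil protease, read 7.35, 8.02 and 8.60 on the day 10 arrays. Of 11 megakaryocyte genes Itga2b rose (1.30) and Rab27b fell (median -0.42). Without day 10 replicate 3, 1 of the 11 rose and 2 fell (median -0.68).

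Neutrophil genes split by stage. Primary granule genes, made by promyelocytes, fell in 8 of 12 (median -2.65). Ctsg, cathepsin G, had the largest fall of all genes tested, from 12.05, 11.86 and 11.87 before IL-5 and 10.93, 11.06 and 11.03 at day 4 to 5.87, 6.04 and 7.39 at day 10 (-5.49, SE 0.289, 45.0-fold, adjusted p = 8.11e-09). Mpo, myeloperoxidase, went from 12.74, 12.78 and 12.62 to 8.17, 8.83 and 9.79, Elane, neutrophil elastase, from 11.59, 11.57 and 11.31 to 6.81, 7.46 and 8.41, and Prtn3 from 11.88, 11.87 and 11.60 to 7.65, 7.90 and 9.03. In these 4 genes replicate 3 was the highest day 10 array and replicate 1 the lowest, and Mpo at day 4 still read 12.60, 12.58 and 12.71. Of 25 later granule and maturation genes 10 rose and 2 fell (median 0.54). Padi4, Ly6g (3.77), Stfa3 (3.18) and Olfm4 (2.96) rose, and haptoglobin, Hp (-2.03), and Chil3 (-1.11) fell. Hp read 7.15, 8.06 and 8.91 and Chil3 6.17, 6.98 and 7.91 at day 10, again with replicate 3 highest. The mean of the list was 9.35, 9.65 and 9.92 on the day 10 arrays, against 8.52 to 8.62 before IL-5 and 10.13 to 10.30 at day 4. Chil3 did not pass without day 10 replicate 1 (-0.68). Ly6g and stefin genes have close copies, so their identity is uncertain.

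Monocyte and macrophage genes rose in 13 of 27 and fell in 3 (median 1.00, or 0.79 without day 10 replicate 3). Their mean signal on the day 10 arrays was 7.99, 7.83 and 8.66, against 7.08 to 7.17 before IL-5 and 9.01 to 9.10 at day 4. The list thus stood above its start at day 10 but below its day 4 level. Mrc1, the mannose receptor, read 4.80, 4.56 and 5.10 before IL-5 and 8.07, 7.43 and 9.86 at day 10 (3.63). The complement gene C1qc went from 5.29, 5.53 and 5.45 to 8.72, 8.32 and 9.43, and Gpnmb from 6.59, 7.20 and 7.07 to 9.41, 8.93 and 10.75. Itgam and Adgre1, which eosinophils also carry, were even across the day 10 arrays. F13a1 fell from a mean of 11.04 to 8.51, 8.72 and 10.54, and Ccr2 from 11.07, 11.25 and 10.66 to 8.79, 8.79 and 9.95. Without replicate 3 the same counts, 13 and 3, were found. Of 19 stromal and endothelial genes 5 lay under the dim mark at day 10 and 4 before IL-5. That mark is the lower quartile of all gene means, so these counts do not set the list apart. Acta2 (1.13) and Col1a2 (1.03) rose with all arrays, and 0 of the 19 rose without day 10 replicate 3. Decorin, Dcn, a matrix gene picked out after its values were seen, read 4.96, 4.98 and 9.33 at day 10 and did not pass (1.72, adjusted p = 0.124).

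Genes of dendritic cells and of antigen presentation fell in part. Of 22 conventional dendritic cell genes 6 fell, with the peptidase Dpp4 (-3.40), Kmo (-2.68) and Cd209a (-1.76) beside Flt3, and Cd80 rose (1.78). Of 12 plasmacytoid genes 6 fell, with Spib (-3.03), Ly6d (-1.84), Tcf4 and Irf8, and Irf7, an interferon response factor, rose (1.34). Of 16 MHC class II and antigen presentation genes 6 fell. H2-Ab1 read 9.34, 9.49 and 9.30 before IL-5, 10.60, 10.66 and 10.76 at day 4 and 7.72, 7.73 and 7.98 at day 10, so that the start lies between the later groups. H2-Ob (-2.36), H2-DMa (-1.68) and H2-Aa (-1.46) fell as well, and H2-Oa rose at the limit (1.04).

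**Figure D4:**
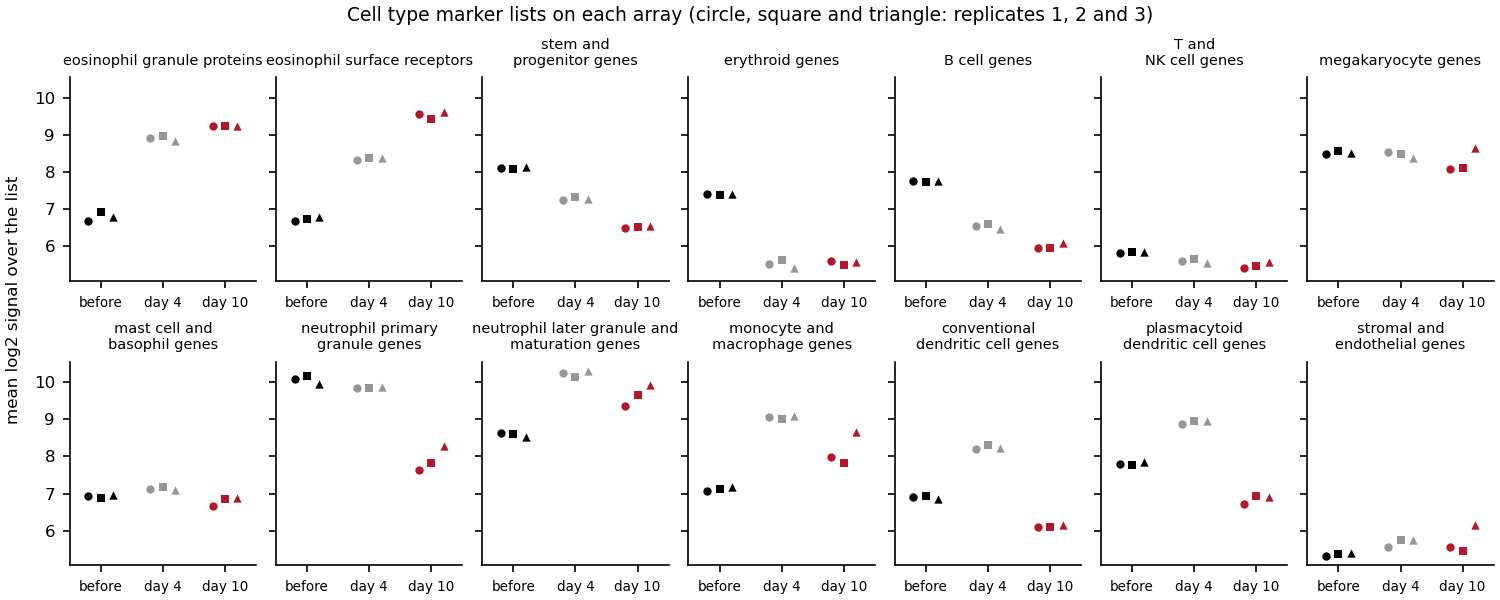
Mean log2 signal over 14 cell type marker lists on each array before IL-5 (black), at day 4 (grey) and at day 10 (red), with a marker shape for each replicate. Day 10 replicate 3 (triangle) stands above the other day 10 arrays for monocyte and macrophage genes (8.66 against 7.99 and 7.83), stromal and endothelial genes (6.15 against 5.56 and 5.45) and megakaryocyte genes (8.65 against 8.09 and 8.10).

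Genes by which cells grow and divide fell in large part. Ribosome biogenesis factors fell in 37 of 38, against 9.4% of all genes, with a median of -1.81. Dkc1, the pseudouridine synthase of ribosomal and telomerase RNA, read 10.01, 10.03 and 9.92 before IL-5, 8.43, 8.48 and 8.49 at day 4 and 7.51, 7.41 and 7.48 at day 10 (-2.52, SE 0.0902, adjusted p = 2.78e-10). Gnl3 (-2.34), Tsr1 (-2.32) and Nop10 (-2.30) fell by like amounts, and all 38 members lay below zero change. Nucleotide, folate and serine enzymes fell in 20 of 25 (median -1.67). Ppat, which starts purine synthesis, went from 10.21, 10.49 and 10.36 to 7.39, 7.33 and 7.69, followed by Mthfd1 (-2.48), Umps (-2.26) and Ctps (-2.22). Aminoacyl tRNA synthetases fell in 10 of 18, with Iars at -1.73 and Kars at -1.54. Of 53 measured cytosolic ribosomal protein genes 3 fell, Rpl12 (-1.60), Rpl36a (-1.08) and Rpl36 (-1.01), the last 2 at the limit, although the median was -0.66. Ribosomal protein genes have many processed copies in the genome that can share signal, and 1 fell after quantile normalization, against 6 when replicate 3 before IL-5 or day 10 replicate 2 was left out.

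DNA replication factors fell in 35 of 42 (median -1.59). Gins1, of the replicative helicase, read 9.06, 8.96 and 9.15 before IL-5 and 6.59, 6.54 and 6.45 at day 10, and Prim1 (-2.23), Mcm2 (-2.22) and Mcm6 (-2.08) fell with it. Mitosis and spindle genes fell in 29 of 47 (median -1.08), among them Cenpm (-1.96), Nek2 (-1.86), Bub1 (-1.71) and Bub1b (-1.69), and in 21 after quantile normalization. The proliferation marker Mki67 did not pass, at 10.25, 10.12 and 10.10 before IL-5, 10.18, 10.05 and 10.09 at day 4 and 9.98, 9.95 and 9.81 at day 10 (-0.24, adjusted p = 0.0633). Its change was the smallest of the 47 genes of that list. All 47 lay below zero. Among cyclins and CDK inhibitors 5 rose and 5 fell of 26. Cdk4 fell from 12.01, 11.98 and 12.13 to 9.83, 9.89 and 10.20, and E2f3 (-1.34) fell too, while the inhibitors Cdkn2b (1.98) and Cdkn2a (1.75), the pocket protein gene Rbl2 (1.73) and Ccng2 (1.41) rose. Cdkn2d (0.78), Cdkn2c (-0.89) and Cdkn1b (0.79) did not pass, and the other probe set of Cdkn1b gave 1.83. Of 13 histone genes H1f2 (1.98) and H2bc4 (2.83-fold) rose and 4 fell, Macroh2a1 (-1.49) and H2ac4 (-1.43) the most. Of 22 genes of the BCL2 family and death regulators 4 rose, with Birc3 (1.29) and Fas (1.17), and Bcl2 alone fell.

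Genes of protein turnover, RNA splicing and mitochondria had medians between -0.85 and -1.07. Mitochondrial ribosomal proteins fell in 28 of 52 (median -1.07), with Mrpl13 at -1.67, and oxidative phosphorylation subunits in 16 of 41 (median -0.85), with Ndufa9 at -1.48 and cytochrome c, Cycs, at -1.43. Splicing factors fell in 14 of 33 (median -0.86), with Snrpd1 at -1.74, and proteasome subunits in 10 of 37 (median -0.88), with Psmd7 at -1.36. With medians so near the 2-fold limit these counts shift with the scale. After quantile normalization 9 oxidative phosphorylation, 8 splicing and 4 proteasome genes fell, and 15 proteasome genes fell without day 10 replicate 3. ER chaperones and unfolded protein response genes had a median of -0.03, and Asns alone fell (-1.29). Of 19 cholesterol synthesis genes Insig1 alone fell (-1.06), at the limit, and 0 fell after quantile normalization (Insig1 -0.97) or without day 10 replicate 2. Glycolysis and glucose transport genes rose in 6 of 21 and fell in 4. The glucose carriers Slc2a3 (3.09) and Slc2a1 (1.79) and Aldoc (1.76) rose. The lactate carriers moved oppositely: Slc16a1 went from 10.12, 10.12 and 10.09 to 6.73, 6.90 and 7.42, and Slc16a3, the exporter of glycolytic cells, from 7.41, 7.23 and 7.39 to 10.52, 10.51 and 10.60. Hk3 (-1.58), Pfkm (-1.67) and, at the limit, Ldhb (-1.09) fell.

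**Figure D5:**
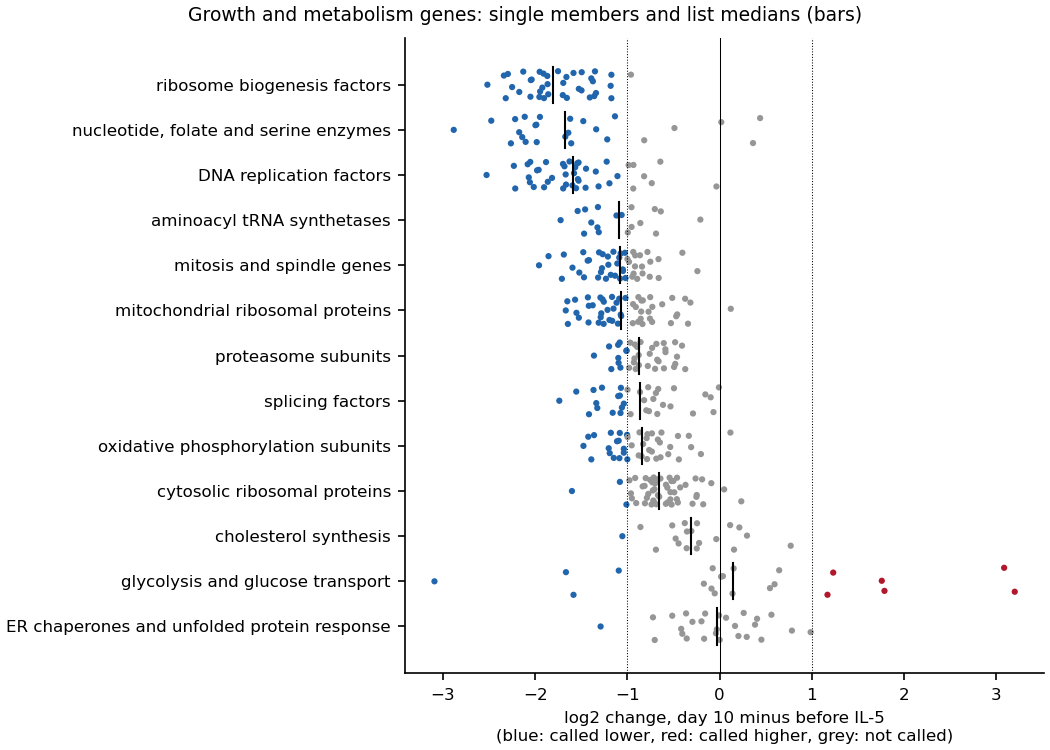
Log2 change at day 10 against before IL-5 of every measured member of 13 growth and metabolism lists, with members that fell in blue, members that rose in red, the others in grey, and a bar at each list median. Ribosome biogenesis factors lie wholly below zero with a median of -1.81, and glycolysis and glucose transport genes spread from -3.09 to 3.20.

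Promoters of genes that fell with the cell cycle are shown for Cdc20, which activates the mitotic ubiquitin ligase and fell by 1.32 on the log2 scale, and Cdk1, the mitotic kinase, which fell by 1.31. These genes were picked after the motif shares were seen, since they hold both the CCAAT box and the CHR core TTTGAA, elements known from promoters of mitotic genes. Capitals mark these motifs, with ATTGG for CCAAT on the other strand. The windows are the 250 bases before the start, for Cdc20 chr4:118437344-118437593, minus strand and for Cdk1 chr10:69352913-69353162, minus strand, GRCm38.p6.
Cdc20: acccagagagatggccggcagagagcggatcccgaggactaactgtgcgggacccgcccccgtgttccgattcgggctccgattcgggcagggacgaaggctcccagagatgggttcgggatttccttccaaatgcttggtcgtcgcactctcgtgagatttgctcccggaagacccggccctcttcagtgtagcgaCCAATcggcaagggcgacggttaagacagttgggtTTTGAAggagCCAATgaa
Cdk1: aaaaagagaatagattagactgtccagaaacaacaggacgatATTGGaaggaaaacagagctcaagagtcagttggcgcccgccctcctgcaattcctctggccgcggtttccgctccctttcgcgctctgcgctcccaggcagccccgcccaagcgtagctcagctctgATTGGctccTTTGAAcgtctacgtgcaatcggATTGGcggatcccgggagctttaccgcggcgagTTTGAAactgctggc
TTTGAA lies in the 300-base windows of 28 of 39 mitosis and spindle genes (71.8%), 15.2% of all measured genes and 15.7% of the genes that fell. CCAAT lies in 29 of the 39 (74.4%), in 22 of 34 DNA replication genes (64.7%) and in 38.2% of all. The E-box CACGTG, the core bound by MYC family factors, lies in 8 of 33 ribosome biogenesis genes (24.2%), 13.4% of the genes that fell, 10.0% of those that rose and 8.4% of all. These shares carry no test, and promoters differ in base composition between groups.

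The Mir17 host transcript and its microRNAs formed the longest run of neighbouring genes that moved one way, on chromosome 14. These microRNAs repress cell cycle inhibitors and pro-death genes and are known as targets of MYC. Their mature sequences from RefSeq (GRCm38.p6) are given with the seed, bases 2 to 8, in capitals. Members with a shared seed stand together.
mmu-miR-17-5p: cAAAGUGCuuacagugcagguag
mmu-miR-20a-5p: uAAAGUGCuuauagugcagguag
mmu-miR-18a-5p: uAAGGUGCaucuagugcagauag
mmu-miR-19a-3p: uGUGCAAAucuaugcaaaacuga
mmu-miR-19b-3p: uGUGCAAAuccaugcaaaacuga
Mir17 went from 6.14, 6.35 and 6.35 to 4.84, 4.58 and 5.04, and Mir20a from 6.52, 6.92 and 6.77 to 5.10, 5.12 and 4.99. Mir18 (-1.54), Mir19a (-1.65), Mir19b-1 (-1.69) and the host gene Mir17hg (-1.60) fell too. The groups did not overlap in these genes, as in 49.7% of all genes. Mir17 at day 10 lay close to the dim mark of 4.66. The probes lie in 1 primary transcript and read hairpin or host RNA, so these are not independent measures and none is a level of a mature arm. Of 296 microRNA genes tested 10 fell (3.38%) and 4 rose (1.35%), against 9.4% and 4.83% of all genes. The cluster was named after its values were seen. Runs of at least 3 neighbouring measured genes numbered 13 among genes that rose and 31 among genes that fell, and how many such runs chance gives was not computed. The next longest were 2 runs of 5 fallen genes, Calcrl to Tmx2 on chromosome 2 and Mrpl35 to St3gal5 on 6. The following runs were picked after their values were seen, as they hold genes described above. Ccr1, Ccr1l1 and Ccr3 on chromosome 9 rose, as did Ncf4, Csf2rb2 and Csf2rb on 15, C1qb, C1qc and C1qa on 4, and Prg2, Prg3 and P2rx3 on 2. H2-Ob, H2-Ab1, H2-Aa and H2-Eb1 on 17 and Ptbp1, Plppr3, Prtn3 and Elane on 10 fell together.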

How the data were processed

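Total RNA of 9 samples of cultured LDBM cells was labelled and read on Affymetrix mouse gene arrays. The deposited values are log2 signals per probe set, made with Affymetrix Expression Console 1.1.2637.26569 per the submitters' processing notes; the sample descriptions name a default gene-level RMA summary, per the labels. Its annotation release was not among the notes used here. Of 35557 probe sets, 21789 named 1 gene, 1621 several and 12147 none in the probe table used. For each of 19938 genes the brightest probe set by mean over all 9 arrays was used, which was a choice for 999 of them.

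Groups and replicate numbers came from sample titles. limma 3.58.1 in R 4.3.3 (lmFit, eBayes) was fitted to all 9 arrays with 3 group means, 6 residual and 6.47 prior degrees of freedom, two-sided, with Benjamini-Hochberg adjustment over all genes. The script was tested on simulated data. The number of arrays limits the precision.

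The comparison and the 52 gene lists (1305 of 1439 memberships measured) were chosen with earlier results of these data known. Named genes are the 15 largest rises and falls without overlap, up to 4 called members of each list in each direction (2 of any size where none passed), all measured eosinophil granule, eosinophil receptor and IL-5 receptor genes, and a set of transcription factors and cell cycle genes. Genes outside this rule are marked as picked after their values were seen. Promoter and microRNA sequences are RefSeq's, for 15614 of the genes. Alternatives were other scalings, spread estimates, filters, probe set rules, a replicate block and leaving out each array. Probe sets naming several genes or none stayed out of the gene tests.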

Additional observations from a re-analysis of the deposited data

Results flagged for a closer look

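Probe sets that name several genes were left out of the gene tests, and some of them changed. Of 1621 such probe sets, 32 were higher at day 10 and 130 were lower by the same rule (adjusted p under 0.05 in limma and at least 2-fold). These shares, 1.97% and 8.02%, lie below the 4.83% and 9.4% of all genes tested. They are counted here because they lie outside the genes described above, and no gene is named from them.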

How the results depend on the processing

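The number of genes that rose, 964, and that fell, 1875, and the share of falls, 66.0%, were recomputed under 15 alternatives, of which 2 were chosen after seeing the data. Quantile normalization over the tested genes alone gave 1179 rises and 1411 falls (54.5% falls), and subtraction of the medians of the tested genes gave 1158 and 1427 (55.2%), both chosen after seeing the data. With 1 array left out in turn, rises ranged from 957 to 997, falls from 1746 to 2045 and the share of falls from 63.7% to 68.1%. Quantile normalization of all probe sets gave 1114 rises and 1523 falls. With the title number as a replicate block, 966 genes rose and 1876 fell. The deviations of arrays with the same title number correlated at -0.115, -0.047 and -0.004, which does not pair them, and the sample descriptions give other numbers than the titles for 4 of the 6 arrays. Of 273 named genes 257 passed, 234 of them under all 15 alternatives, and 0 changed sign among those that passed. The 23 that missed the threshold under at least 1 setting lay near the 2-fold limit in the main fit. Col1a2 (1.03) and Chil3 (-1.1) also missed it on the adjusted p, with the trend and robust spread estimate in limma. Col1a2 missed it on the adjusted p as well without replicate 2 (1.1) or replicate 3 (1.02) before IL-5. Some losses were larger, as for Col1a2 without day 10 replicate 3 (0.5) and Chil3 without day 10 replicate 1 (-0.68). Among the genes described, calls were lost without day 10 replicate 1 for Ccl5, Chil3, Itga6, Ldhb, Prdx1, Ptger3, Rab27b, Rpl36 and Sod2, without day 10 replicate 2 for H2-Oa, Insig1, Itga6 and Ptger3, and without day 10 replicate 3 for Acta2, Bcl2l1, Col1a2 and Tlr6. Without replicate 1 before IL-5 they were lost for Bcl2l1, Chil3, Col1a2, Prdx1 and Rpl36, without replicate 2 for Col1a2, H2-Oa, Itga6, Jak1, Prdx1 and Tlr6, and without replicate 3 for Col1a2, Gpx4, H2-Oa, Ptger3 and Rab27b. Of the 16 that did not pass, Spi1, Csf2ra and Cdkn1b passed under at least 1 alternative. Dim signals limit the size of folds such as that of Ccr3, and no mean of 3 arrays resolves cells within a culture.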
